A study of Homo sapiens with 4 samples.

Results

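The array described here measured the RNA of SCP2 breast cancer cells that carried the vector alone and received no TGF-beta. It is 1 of 4 arrays, 1 per group, and it was chosen by its sample title. The other 3 arrays hold vector cells treated with TGF-beta, cells expressing DLC1, and DLC1 cells treated with TGF-beta; the labels state neither the dose nor the duration of TGF-beta. SCP2 is a line grown from 1 cell of the MDA-MB-231 population, a human breast cancer line without hormone receptors that was derived from a pleural effusion, and it was kept for its ability to colonise bone in mice. The vector's promoter, and whether the vector cells were a pool or a clone, are not given either. Cells were cultured and lifted with trypsin, total RNA was taken up in Trizol, and the RNA was copied from oligo-dT primers, labelled with biotin and hybridised to a human genome-wide oligonucleotide array. With 1 array there is no spread between replicates, so no test, p-value or error accompanies any value below, and every statement describes this array rather than the line in general.

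The array carries 54675 probe sets, each a group of short probes read as 1 value. The probe-to-gene table names 42898 of them, 41097 with exactly 1 gene symbol. Those 41097 sets stand for 19775 genes, and a gene is represented here by its brightest set. Values are the deposited linear intensities, in arbitrary units. They order signals, not amounts of transcript: probe sets bind their targets with different strength and are not scaled per transcript length, so a gene that reads higher than another on the array is not thereby shown to have more RNA. Sets whose probes match several related genes also collect the signal of the relatives.

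Bone-metastatic breast cancer cells are known to act on bone through secreted and surface proteins. CXCR4 is a receptor that draws cells toward CXCL12 in the marrow, and CCN2, IL11, MMP1 and osteopontin (SPP1) are known from experimental bone metastasis. Osteoclasts, the cells that resorb bone, are driven by the ligand RANKL (TNFSF11) and held back by its decoy osteoprotegerin (TNFRSF11B); tumour cells can tilt this balance with cytokines, and can restrain bone formation with inhibitors of Wnt and BMP signalling such as DKK1 and noggin.

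The level of no signal was set from genes restricted to other tissues. The 82 olfactory receptor genes on the array, which encode odorant receptors of the nose, read from 0.07 to 0.71, with a median of 0.14 and OR1J2 the brightest. Their 95th percentile, 0.34, was taken as the background, and 4 of the 82 lie above it. A further 70 genes of lens, hair, retina, blood and other restricted tissues had a median of 0.155, and 10 of them lay above 0.34. Their brightest member, the hair keratin-associated gene KRTAP5-8, read 1.19, and genes above that value are called clear here, those between 0.34 and 1.19 weak. CRYAB and HBB, in this panel, also belong to the basal breast and erythroid lists below, and by construction neither could be clear.

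By these levels 13042 of 19775 genes, 66.0%, read above background. Of these, 9308 genes, 47.1% of all, were clear and 3734 genes, 18.9%, were weak. The clear level rests on its brightest restricted gene: with sets of several symbols included it would be 4.53 and 6131 genes would be clear, so genes called clear below between 1.19 and 4.53, such as IL11, SPP1, TNFRSF11B and ERBB2, would be weak on the sets used here. The remaining 6733 genes were at background. The top 10% of genes, 1980 in number, began at 17.02 and are called strong; the top 1%, 198 genes, began at 78.5 and are called very strong. The whole array ran from 0.05 to 258, with quartiles of 0.14, 0.38 and 1.94 over all probe sets.

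**Figure D1:**
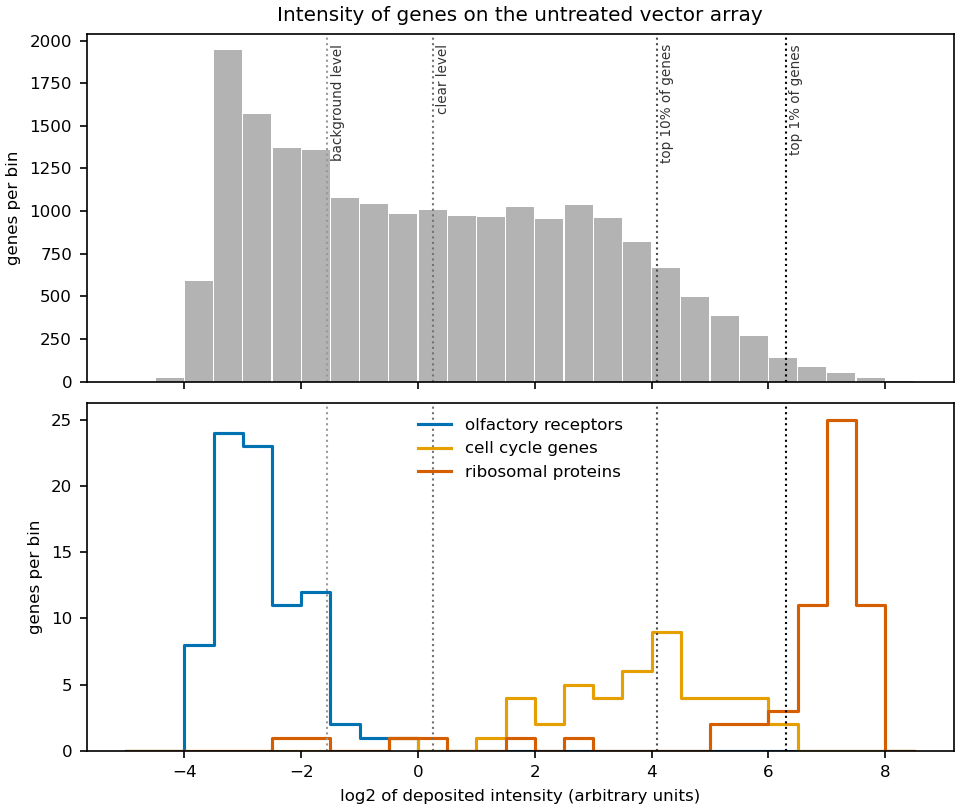
Histograms of the vector array, 1 value per gene (its brightest probe set), as log2 of the intensity in arbitrary units, with genes per bin on the vertical axis. The upper panel holds all 19775 genes, the lower the olfactory receptor, cell cycle and ribosomal protein genes, and dotted lines mark the background, clear, strong and very strong levels. Olfactory receptors lie almost wholly left of the background line, cell cycle genes around the strong level and ribosomal proteins mostly beyond the very strong level.

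The bacterial transcripts spiked into the hybridisation in increasing amounts were read in that order. The BioB sets read from 4.41 to 6.37, the BioC sets from 9.69 to 20.55, the BioD sets from 23.13 to 66.87 and the phage Cre sets from 100.08 to 184.68. Among the sets for the bacterial genes meant as labelling controls, the dap sets read from 1.73 to 16.54, the thr sets reached 5.82, the phe sets 2.36 and the lys sets 1.82, while the trp sets read from 0.08 to 0.11, near the median of the olfactory receptors. The 3′ end of the actin transcript read 9.61 times its 5′ end, against 1.31 times for GAPDH. For a further human control, ISGF3A, the 3′ set read 7.34 and the 5′ set 0.21. Sets placed far from the 3′ end of a transcript can therefore read low.

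Probe sets of 1 gene often disagreed. Among 6428 clear genes with several sets, the brightest set read 2.96 times the next one at the median, and 2934 of them, 45.6%, had at least 1 set at background. VIM is an example of sets that disagree, with 178.39 on one set and 1.7 on the other, though neither is at background. A low value on 1 set is therefore weak evidence, and the number of sets is given below where a low reading matters. Of the 411 sets in the top 1% of named sets, 373 were also there on the array of TGF-beta-treated vector cells, 352 on the DLC1 array and 344 on the array of DLC1 cells with TGF-beta. Most of the brightest sets were thus also among the brightest of each other array.

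The 25 brightest named sets belonged to 20 genes, and 15 of these sets to ribosomal proteins and translation factors. EEF1A1, which carries aminoacyl-tRNA to the ribosome, gave the highest reading of the array, 258. The second among named sets was MMP1, the interstitial collagenase, at 244; a set without a gene name here read 249. The third named was S100A6, a small calcium-binding protein, at 237. RPL41 at 229, RPS16 at 221, RPS18 at 211, RPS10 at 208, RPL37A at 206 and RPS23 at 204.54 are proteins of the ribosome. Among these stood UBB, a polyubiquitin gene, at 216, and FTL, the light chain of the iron store ferritin, at 209. ANXA2, a membrane-binding annexin, read 204.54, and RPL10A read 204. TMSB4X, which holds actin monomers, read 202, RPL23A 199, and the nucleolar chaperone NPM1 198. PABPC1, the poly(A)-binding protein, read 195, RPS4X 191, RPL39 190.51, and PPIA, cyclophilin A, 187.

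Many mRNAs of the translation machinery are known to begin with a run of pyrimidines, the 5′ terminal oligopyrimidine tract, through which their translation responds to growth signals. The start windows of 7 genes are shown because they make this shared feature visible; they are the brightest translation genes that have 1 listed start and such a run. Each runs from 35 bases before the annotated start to 12 bases from it on, from the RefSeq table of GRCh38.p14, and capitals mark a run of at least 6 C or T that touches the 3 bases on either side of the start.
EEF1A1, chr6:73521021-73521067, minus strand: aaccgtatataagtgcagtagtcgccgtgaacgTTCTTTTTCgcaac
RPL41, chr12:56116598-56116644, plus strand: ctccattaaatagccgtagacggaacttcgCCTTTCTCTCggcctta
RPS16, chr19:39435938-39435984, minus strand: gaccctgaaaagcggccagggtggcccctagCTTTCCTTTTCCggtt
RPS18, chr6:33272040-33272086, plus strand: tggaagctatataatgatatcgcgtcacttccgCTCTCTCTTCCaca
RPS10, chr6:34426058-34426104, minus strand: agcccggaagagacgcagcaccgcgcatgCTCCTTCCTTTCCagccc
RPL37A, chr2:216498809-216498855, plus strand: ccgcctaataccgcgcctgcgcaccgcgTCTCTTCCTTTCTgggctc
RPS23, chr5:82278343-82278389, minus strand: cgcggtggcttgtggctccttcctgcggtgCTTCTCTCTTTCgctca

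Of 15384 genes on the array with a listed start, 18.5% had such a run. Among ribosomal proteins 39 of 52, 75%, had one. The share was 45.4% among very strong genes and 30.4% among the 115 of them outside the lists of ribosomal proteins and translation factors. Those lists do not hold every translation gene, EIF4G2 at 101.9 and EIF3F at 92.9 being outside them. The run was found in 21.4% of strong genes with the very strong included and 17.7% of genes that were clear but not strong. Among weak genes the share was 19.1%, and among background genes 18.1%. Below the strong level the share of starts with the run thus stayed near that of all genes. The 21.4% holds the very strong genes, so it does not show a raised share in the other strong genes.

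The other windows shown belong to 4 of the bright genes of other functions described here whose start region holds the letters TATAAA, the core of the TATA box, printed in capitals. DKK1, CCN2 and CXCL8 are secreted proteins described with the bone genes, and ANXA2 is among the 20 brightest.
CCN2, chr6:131951361-131951407, minus strand: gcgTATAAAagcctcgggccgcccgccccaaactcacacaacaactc
CXCL8, chr4:73740534-73740580, plus strand: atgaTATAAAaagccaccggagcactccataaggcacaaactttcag
DKK1, chr10:52314246-52314292, plus strand: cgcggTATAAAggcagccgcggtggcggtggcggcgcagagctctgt
ANXA2, chr15:60397975-60398021, minus strand: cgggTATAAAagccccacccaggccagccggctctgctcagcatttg

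On the sense strand, TATAAA between 45 and 16 bases before the start was found in 3.02% of all 15384 genes and 8.59% of very strong genes. Of the 115 very strong genes outside the lists of ribosomal proteins and translation factors, 13 had it, 11.3%. In the same classes it stood at 2.43% of strong, 1.27% of clear, 3.57% of weak and 5.13% of background genes, so the share was lowest among clear genes and higher at both ends. The AP-1 motif TGAGTCA or its complement TGACTCA, anywhere in the 250 bases before to 50 after the start, was found in 3.74% of all genes and 3.68% of very strong ones. Median GC content of these windows was 63.0% over all genes, 65.7% in clear but not strong genes and 55.7% in background genes. These matches describe letters, not binding.

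Ribosomal proteins were the brightest family. Of 60 measured, 58 were above background, 54 strong and 49 very strong, with a median of 148 against 0.98 over all genes. The members not read above background were RPL36A at 0.31 and RPL3L, a form known from muscle, at 0.24, and the retrocopy RPL10L read 0.92. Among the 13 listed translation factors 8 were very strong: besides EEF1A1 and PABPC1, TPT1 read 177, EIF1 139 and BTF3 127. EEF1A2, the form of muscle and neurons, read 0.46, and EIF4A2, an RNA helicase measured on 1 set, 0.13. Together the listed ribosomal proteins and translation factors made up 57 of the 198 very strong genes. Initiation factors outside the list, EIF4G2 at 101.9, EIF2S2 at 99.75 and EIF3F at 92.9, were very strong too and are not in that count. All 15 aminoacyl-tRNA synthetases listed, which charge tRNAs, were clear, from VARS1 at 5.33 to KARS1 at 106. Ribosomal protein genes have many processed pseudogenes, and with the sets that can match several transcripts left out, 28 rather than 58 were read above background.

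RNA handling and nuclear transport genes were mostly clear, at lower medians than ribosomal proteins: 41.9 for hnRNPs, 43.3 for Sm proteins and 8.8 for importins and exportins. Of 20 hnRNPs, which package nascent RNA, 19 were clear and 15 strong, led by HNRNPK at 88.1 and HNRNPD at 80.9. The Sm proteins of the spliceosome were clear in 11 of 12, led by SNRPD2 at 92.4, and SNRPN, an imprinted neuronal form, read 0.08. Of 19 importins and exportins 17 were clear, led by KPNB1 at 103 and KPNA2 at 99.4. Histones were uneven, with 17 of 49 clear, 34.7% against 47.1% of all genes, and 7 strong. The variant H2AZ1 read 154, H2BC12 121, the linker histone H1-2 91 and H2BC5 58.5, while H3C11 read 0.08. Copying from oligo-dT primers can miss RNA without a poly(A) tail, so a low histone reading need not mean low expression.

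**Figure D2:**
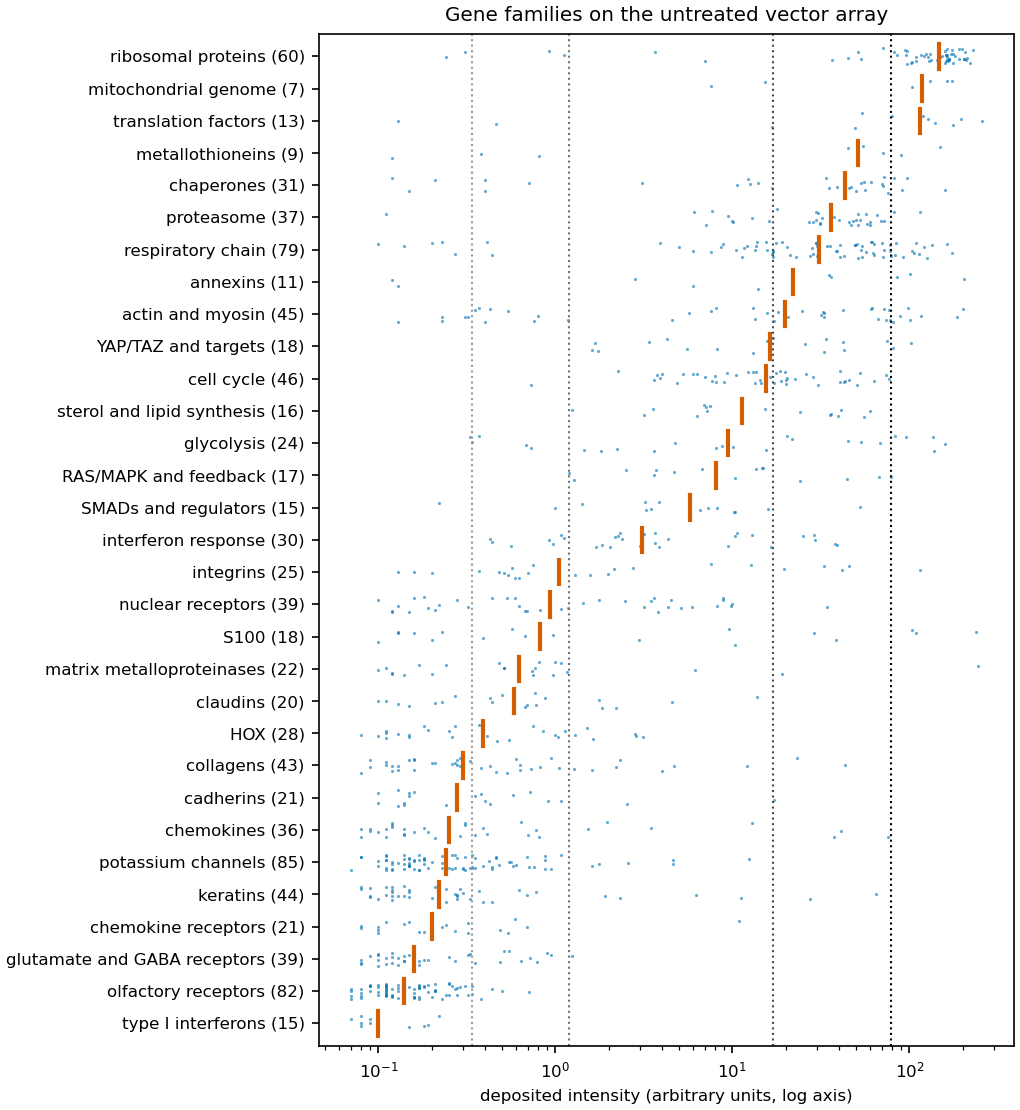
Intensity of each gene of 31 families on the vector array, on a log axis in arbitrary units. Each point is a gene at its brightest probe set, the orange bar is the family's median, the number of genes stands in brackets, and dotted lines mark the background, clear, strong and very strong levels. Ribosomal proteins have a median of 148, and keratins one of 0.22 with a few bright members.

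Energy metabolism was read broadly. Of 79 genes of oxidative phosphorylation 72 were clear and 13 very strong. ATP5F1A of the ATP synthase read 134 and COX7C of cytochrome c oxidase 122. COX7A1, a muscle form, read 0.14 and COX8C, a testis form, 0.1. All 7 mitochondrially encoded genes measured were clear: COX2, here the mitochondrial gene and not cyclooxygenase, read 174, COX1 163, ND4 131, ATP6 119, ND2 104, ND6 15.3 and COX3 7.57. For glycolysis 19 of 24 genes were clear. LDHA and LDHB, the subunits of lactate dehydrogenase, read 158 and 137, and GAPDH read 136 on its control set. PGK1 read 96.3, PGAM1 82.9 and ENO1 68.5, while the muscle mutase PGAM2 at 0.34 and the liver pyruvate kinase PKLR at 0.33 were at background. The glucose transporter SLC2A1 read 10.1.

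The ferritin light chain FTL was far above the other iron genes. TFRC, the transferrin receptor that brings iron in, read 92.1, and the exporter SLC40A1 was weak at 1.19. HAMP, the liver hormone hepcidin, read 0.2. Among 9 metallothioneins, which bind zinc and copper, MT2A read 149, MT1X 89.9, MT1E 70.9, MT1F 54.96, MT1H 51.2 and MT1G 44.8, while MT3, MT4 and MT1M read between 0.12 and 0.81. The MT1 sequences are near-identical, so the bright MT1 readings cannot be divided among the genes. Antioxidant genes were clear in 26 of 35, led by TXN at 118, PRDX1 at 111 and TXNRD1 at 73.4. NQO1, which reduces quinones, read 49.65.

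Protein folding and breakdown were prominent too. Of 37 proteasome genes 36 were clear and 28 strong, from PSMB10 at 6.1 to PSMB1 at 115; the testis subunit PSMA8 read 0.11. Among 31 chaperones 25 were clear, led by HSP90AA1 at 159.85 and the mitochondrial HSPD1 at 97. The muscle small heat shock genes HSPB3, HSPB6 and HSPB7 were at background, from 0.12 to 0.21. Genes of the unfolded protein and amino acid response were clear in 17 of 18: HSPA5, the chaperone BiP, read 71.2, the transcription factor ATF4 67, and SLC7A11, which imports cystine, 57.9. Of 15 cathepsins 11 were clear, with CTSC at 49 and CTSL at 20.5, whereas CTSK, the collagen-cleaving cathepsin of osteoclasts, was weak at 0.67. All 16 genes of sterol and fatty acid synthesis were clear, led by ACLY at 59.6 and SCD at 55.3. Of 16 genes of the hypoxia response 15 were clear, with HIF1A itself at 78.1, the peptide hormone ADM at 53.7 and BNIP3 at 47; EGLN3 read 0.31.

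The actin cytoskeleton was one of the brighter groups, with 32 of 45 genes clear and 25 strong. After TMSB4X came TMSB10 at 186, DSTN and CFL1, which sever filaments, at 116 and 88, and the myosin light chain MYL6 at 101. ACTB read 80.4 on its control set, ACTN1 71.7 and MSN, moesin, 77.7. The muscle genes CNN1 at 0.23, ACTN2 at 0.23 and ACTA1 at 0.13 were at background. Of 19 tubulins 13 were clear: TUBA1C read 186, TUBA1B 178 and TUBB 113, the TUBA1 genes being too alike to separate. TUBB3, known from neurons and from some carcinomas, read 32.7 and TUBB4A, another neuronal form, 0.14.

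Among calcium-binding proteins, annexins were mostly clear, and S100 proteins and galectins had a few bright members among dim ones. After ANXA2 came ANXA1 at 101 and ANXA5 at 85.1, with 9 of 11 annexins clear and ANXA13 and ANXA9 at 0.13 and 0.12. Among 18 S100 genes 8 were clear. S100A4, which is known for its association with metastasis, read 109, and S100A10, the partner of annexin A2, 104. The inflammatory S100A8 and S100A9 both read 0.13, and S100P was weak at 0.97. LGALS1, galectin 1, read 94.4 and LGALS3 48.9, with 3 of 9 galectins clear. The 14-3-3 adaptor genes were all clear, with YWHAQ at 139 and YWHAB at 127.

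The 4 genes used as marks of these cells were all clear. VIM, the intermediate filament vimentin of mesenchymal cells, read 178.39, in the 99.9th percentile of genes. CCN2, a matrix-associated growth factor also called CTGF, read 74.59, in the 98.9th percentile. PTX3, a long pentraxin secreted in inflammation, read 73.28, in the 98.8th. CXCR4 read 10.87, in the 84.6th percentile, with 2.79 and 2.74 on its other sets. VIM was very strong, CCN2 and PTX3 strong, and CXCR4 clear.

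Keratins, the filaments of epithelial cells, were few beside vimentin: 6 of 44 were clear, against 47.1% of all genes. KRT18 read 65.1, KRT10 27.5 and KRT19 11.2. KRT8, the usual partner of keratin 18, read 6.25, KRT7 2.32 and KRT80 1.91. The remaining 38 read no more than KRT15, at 0.78. Lamins of the nuclear envelope were clear, with LMNA at 22.7, while the muscle filament DES at 0.47 and the neurofilament NEFL at 0.11 were not.

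For the luminal breast genes, 11 of 20 were clear, near the 47.1% of all genes, and 1 was strong. The clear count thus does not set this list apart from the array as a whole. After the keratins, EPCAM read 7.45, GATA3 4.59 on one set with 0.92 and 0.59 on the others, XBP1 4.31 and AGR2 2.94. The receptors were low. ERBB2, the HER2 receptor, read 2.05 and ERBB3 1.76. ESR1, the oestrogen receptor, read 0.44 at its brightest of 9 sets, the lowest being 0.09. PGR, the progesterone receptor, read 0.1, FOXA1, the pioneer factor of luminal cells, 0.11, and mammaglobin SCGB2A2 0.07. ESR1, FOXA1, PGR and SCGB2A2 all lay within the range of the olfactory receptor genes, 0.07 to 0.71. Of these only ESR1 was above the background of 0.34, and it was weak.

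Basal breast genes were split. CAV1, the membrane-coat protein caveolin 1, read 76.9, CAV2 36.3, the laminin receptor subunit ITGA6 33.0, the HGF receptor MET 32.2 and EGFR 15.5. The basal keratins KRT5 at 0.39 and KRT14 at 0.21, the receptor KIT at 0.19 and CRYAB at 0.35 were weak or at background. In all 6 of 12 were clear, near the 47.1% of all genes.

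Of 22 mesenchymal genes 13 were clear, 59.1% against 47.1% of all genes, and 12 strong, 3 of them very strong. Besides VIM and S100A4 these were the receptor AXL at 80.9, MSN, the hyaluronan receptor CD44 at 66.6, ETS1 at 52.6, NT5E at 37, FN1, fibronectin, at 23.9 and the collagen cross-linker LOX at 17.1. CD44 has 13 sets, and the lowest read 0.1. Transcription factors of epithelial-mesenchymal transition were uneven. SNAI2 read 21.9 and ZEB1 19.9, TCF3 6.54 and TCF4 4.95, whereas ZEB2 at 0.72, SNAI1 at 0.36 and PRRX1 at 0.37 were weak, and TWIST2 at 0.14, FOXC2 at 0.11 and TWIST1 at 0.08 were at background. N-cadherin, CDH2, read 0.35, at the edge of background. With the sets that can match several transcripts left out, the number above background was 8 rather than 14 for the luminal and 12 rather than 19 for the mesenchymal list.

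**Figure D3:**
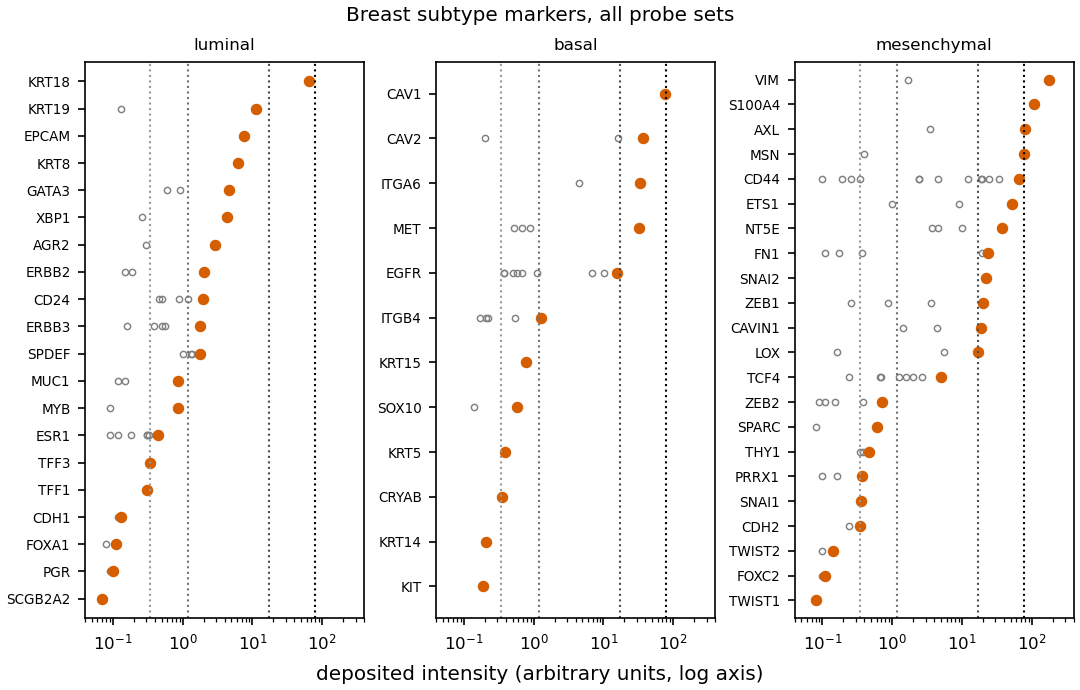
Intensity of the luminal, basal and mesenchymal breast genes on the vector array, on a log axis in arbitrary units. Filled points are a gene's brightest probe set, open points its other sets, and dotted lines mark the background, clear, strong and very strong levels. The mesenchymal list has 12 genes at the strong level or beyond, led by VIM at 178.39, the basal list 4 and the luminal list 1, KRT18 at 65.1.

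Epithelial junction genes were not uniformly low. E-cadherin, CDH1, was at background on both sets, with 0.13 and 0.12. Among 21 cadherins 2 were clear: CDH11, the mesenchymal and osteoblast cadherin, read 17.25 with 2.25, 1.85 and 0.62 on its other sets, and CDH18 read 2.55. The catenins that tie cadherins to actin were bright, CTNNB1 at 76.1 and CTNNA1 at 54.2. The desmosomal genes DSG2 at 24.3, with 2.11 on its other set, and DSP at 23.2 were strong. So were the epithelial transcription factor EHF at 26.6, the protease inhibitor SPINT2 at 20.9 and TJP1 at 18.9. The strong reading of EHF rests on 1 set, its others reading at most 1.51. OCLN read 6.39, and 5 of 20 claudins were clear, led by CLDN12 at 13.7 and CLDN7 at 4.55. The epithelial regulators ESRP1 at 0.18, GRHL2 at 0.14, RAB25 at 0.14 and OVOL2 at 0.12 were at background. Of 17 mucins 1 was clear, MUC8 at 2.16, and MUC1 was weak at 0.86. At the stricter background of the 99th percentile of olfactory receptors, the cadherins above it went from 10 to 6.

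Among 15 bone metastasis genes all were above background and 13 clear, against 66.0% and 47.1% of all genes; the list was drawn up from earlier work on this family of lines. MMP1 stood first. SRGN, serglycin, a proteoglycan of secretory granules, read 109.97, CCN2 74.59, and JAG1, a Notch ligand, 60.5. FST, follistatin, which binds activin, read 44.6, and ADAMTS1, a matrix protease, 27.4 with 5.01 on its other set. CXCR4 read 10.87, the EGFR ligand HBEGF 6.92 and the phosphatase DUSP1 13.7, DUSP1 with 0.49 and 0.41 on its other sets. RUNX2, the osteoblast transcription factor, read 5.97 on one set and at most 0.36 on the others. IL11, a cytokine that promotes osteoclasts, read 4.5 with 0.9 on its other set. SPP1 read 1.96 with 0.06 on its other set, and FGF5 1.33. The bone matrix genes SPARC at 0.61 and IBSP at 0.4 were weak. The clear readings of DUSP1, RUNX2, IL11 and SPP1 thus rest on 1 set each.

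Of 23 genes that act on osteoclasts or osteoblasts, 17 were clear, 73.9% against 47.1% of all genes, and 4 strong. DKK1, an inhibitor of Wnt signalling and of bone formation, read 111. CXCL8, interleukin 8, read 76.2 with 8.32 on its other set, JAG1 60.5 and the monocyte attractant CCL2 37.3. NOG, noggin, read 14.6 and its ligand BMP4 10.3. The cyclooxygenase PTGS2 read 7.02, IL1B 6.23 with 5.91, IL1A 4.25, IL6 3.84, LIF 3.23 and WNT5A 2.79. The macrophage growth factor CSF1 read 5.92 on one set, with 0.62, 0.35 and 0.3 on its others. Osteoprotegerin, TNFRSF11B, read 3.69 and 3.55 on its sets, while RANKL, TNFSF11, was at background at 0.11. TNF at 0.15, MMP13 at 0.14 and VCAM1 at 0.11 were at background too. The receptor of RANKL, TNFRSF11A, read 3.08. Taking both bone lists together, 32 of 36 genes were above background, 28 clear and 9 strong, with a median of 5.21.

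**Figure D4:**
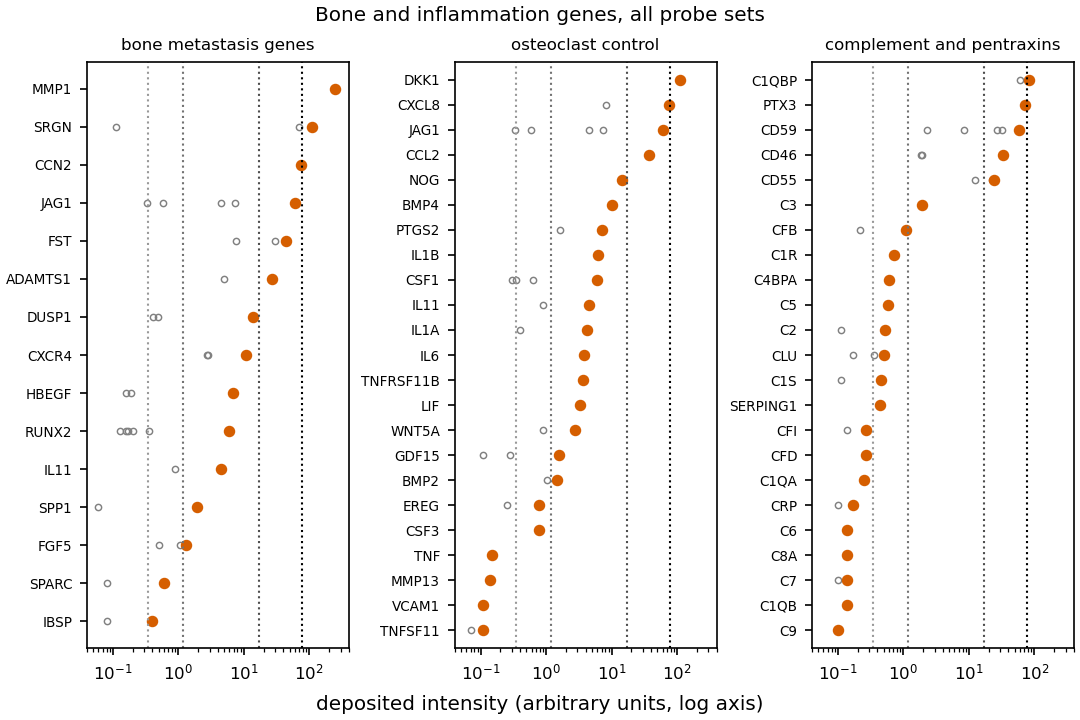
Intensity of the bone metastasis, osteoclast control and complement genes on the vector array, on a log axis in arbitrary units. Filled points are a gene's brightest probe set, open points its other sets, and dotted lines mark the background, clear, strong and very strong levels. MMP1 at 244, DKK1 at 111 and SRGN at 109.97 lie beyond the very strong level, and TNFSF11 and VCAM1, both at 0.11, lie at background.

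Chemokines, chemokine receptors and interleukins were mostly low, and the receptors of interleukins and TNF ligands were closer to the 47.1% of all genes that were clear. Of 36 chemokines 7 were clear: CXCL8, CXCL1 at 41.2, CCL2, CXCL2 at 13, CXCL3 at 3.49, CCL20 at 1.96 and CCL28 at 1.53. CXCL1, CXCL2, CXCL3 and CXCL8 attract neutrophils through the same receptors. CXCR4 was the only clear one of 21 chemokine receptors, the next being CCR1 at 0.69, and CCR7 at 0.1 and CXCR2 at 0.08 were at background. Of 36 interleukins 7 were clear, the brightest being IL1B and IL18 at 6.12. Their receptors were read more broadly, with 18 of 44 clear, 40.9%, led by IL6ST, the shared gp130 chain, at 61.1, the decoy IL13RA2 at 33.2 and OSMR at 14.7. Among 14 TNF ligands TNFSF15 was the brightest, with 54.57 and 4.13 on its sets. Of 24 TNF receptors 11 were clear, 45.8%, led by the death receptor TNFRSF10B at 26.9. IL13RA2, CXCL1 and TNC also belong to a list on lung metastasis, of which 7 of 13 were clear and ID1 read 2.28.

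PTX3 stood among complement-related genes of which 6 of 23 were clear. Its neighbours at the top were C1QBP, a mitochondrial protein that also binds C1q, at 82.5, and the surface inhibitors of complement, CD59 at 58.6, CD46 at 33.3 and CD55 at 24.2. Complement C3 itself read 1.95 and CFB 1.1. The terminal components C6 and C9 read 0.14 and 0.1.

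Matrix proteases were narrow. Of 22 matrix metalloproteinases 3 were clear, MMP1, the stromelysin MMP3 at 19 and the membrane-bound MMP14 at 6.13. The gelatinases MMP9 and MMP2 read 0.74 and 0.17. Their inhibitors TIMP2 at 58.4, TIMP3 at 35.7 and TIMP1 at 13.9 were clear, and TIMP4 was weak at 0.64. In the plasminogen system the activators PLAT at 30.5 and PLAU at 24.7, the receptor PLAUR at 14.5 and the inhibitor SERPINE2 at 115 were read, while plasminogen, PLG, a liver product, read 0.33. Apart from SERPINE2 and SERPINB1 at 16.7, serpins were low, 5 of 30 being clear and SERPINB5, maspin, at 0.14. The sheddases ADAM9 at 55.3, ADAM10 at 28.7 and ADAM17 at 12.9 led the 5 clear genes among 20 ADAMs, many of the rest being testis forms.

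Collagens were mostly at background, with 9 of 43 clear. COL13A1, a membrane-bound collagen, read 43.3, COL8A1 23.1, COL12A1 12, and the basement membrane chains COL4A2 and COL4A1 4.66 and 3.98. Their other sets read at most 4.51, 0.3, 1.66, 0.37 and 0.42, in the same order. COL1A1, the main chain of bone and stroma, read 1.27. Of the laminins LAMB3 read 29.8 and LAMC1 15.8. Among matricellular proteins CCN1 read 102, THBS1 48.7, CCN3 33.2 and TNC 22.5, while POSTN, periostin, read 0.1. Integrins were clear in 12 of 25, or 48%, near the 47.1% of all genes. ITGB1, the common beta chain, read 114, and its partners ITGA2 45.4, ITGA6 33.0 and ITGAV 19.5. ITGB5 read 12.8 and ITGB8 7.53, whereas ITGB3, which pairs with ITGAV and is known from osteoclasts and platelets, was weak at 0.59, and ITGA4 was at background at 0.13. ITGAE at 41.7 is a chain known from lymphocytes. With the median of a gene's sets in place of the brightest, 13 rather than 22 integrins were above background.

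Among 42 receptor tyrosine kinases 12 were clear. AXL led at 80.9, followed by MET at 32.2, EPHA2 at 19.6, RYK at 12, ROR1 at 6.67, FGFR1 at 6.31 and IGF1R at 4.42. Ligands of EGFR were HBEGF and TGFA at 3.02, and of ERBB3 NRG1 at 25.2. Of 22 FGF ligands 3 were clear, FGF13 at 4.17 being the brightest, and FGF2 was at background at 0.2. Angiogenic factors included PDGFC at 44.4, VEGFC at 17.9 and VEGFA at 15.8, and NRP1, a co-receptor of VEGFA, read 24.7. Of the insulin-like growth factor axis, the binding proteins IGFBP7 at 68.1, IGFBP1 at 47.4 and IGFBP3 at 27.1 were strong and IGF1 was at background at 0.29.

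Genes of the ERK route and its feedback were clear in 16 of 17, with a median of 8.04. The ERK phosphatases DUSP6 at 67 and DUSP4 at 44.2, PHLDA1 at 78.48 and the inhibitor SPRY2 at 24.2 were strong, and the target ETV5 read 10.3. Of AP-1 and early response factors, MAFF read 43.5, JUN 30.7, JUND 21.9, FOSL1 10.1 and EGR1 9.99, while FOS was weak at 0.78. All 18 genes of the YAP and TAZ list were clear, with a median of 16.26. YAP1 read 25.6 and its paralogue WWTR1, TAZ, 34, their DNA-binding partner TEAD1 42.1 and the targets CCN1 102, ANKRD1 33.1 and AJUBA 42.95. The upstream kinase LATS2 read 16.9 and NF2, merlin, 1.67.

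TGF-beta binds TGFBR2, which activates TGFBR1, and the receptors pass the signal to SMAD proteins that enter the nucleus. Here, without added ligand, the signalling receptors TGFBR2 at 41.7 and TGFBR1 at 25.9 were strong and the co-receptor TGFBR3 was clear at 11.8, as were 9 of the 13 receptors. Of 30 ligands 7 were clear, led by the activin chain INHBA at 12.3, BMP4 and TGFB2 at 6.78, while TGFB1 at 0.68 and TGFB3 at 0.43 were weak. Among SMADs and their regulators 13 of 15 were clear. The receptor-regulated SMAD2 read 15.9 and SMAD3 7.33, their partner SMAD4 5.73 and the BMP-linked SMAD5 10.2. The ubiquitin ligase SMURF2 read 52.6, and the feedback inhibitor PMEPA1 8.19. The inhibitory SMAD7 was weak at 1.0 and SMAD9 at background at 0.22. Of the ID genes, BMP and TGF-beta targets, ID4 read 2.5 and ID1 2.28, and ID3 0.19, while MYC read 30.8. The latent binding protein LTBP1 read 7.22 and the BMP antagonist GREM1 0.08.

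DLC1, a GTPase-activating protein that switches RHOA off and the gene expressed in the DLC1 groups, was just above the clear level at its brightest, with 1.79, 1.77, 0.26, 0.14 and 0.07 on its 5 sets. Its relatives STARD13 and STARD8 read 3.9 and 1.57, STARD13 with 0.18 on its other set. Of 27 genes in the list of DLC1 relatives, small GTPases and their effectors 22 were clear. RHOA read 82.9, RAC1 82, the antagonist RND3 50.6, CDC42 24.3, RAC2, a form known from blood cells, 23.1 and RHOC 15.3. The kinase ROCK1 read 30.4 and ROCK2 10.2. RHOB was weak at 0.65, and RND2 at 0.26 and RHOH at 0.17 were at background. ARHGAP29, another GTPase-activating protein, read 79.8 and was very strong on 1 set, with at most 1.36 on its others.

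All 46 proliferation genes were above background and 45 clear, with a median of 15.46. RRM2 at 76.4 and TYMS at 74.1 make nucleotides, CDK1 at 63.5 drives mitosis, PCNA at 52.7 clamps the polymerase, and CCNB1 read 40.6 and TOP2A 40.5. MKI67 read 5.96 and PLK1 0.73, the lowest of the list. The securin gene PTTG1 read 97. Among tumour suppressors RB1 read 18.4, the inhibitor CDKN1B 10.9, CDKN1A 4.41 and BRCA1 3.64. NF1 read 0.1, on 1 set.

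CDKN2A, which encodes the inhibitors p16 and p14ARF, was weak at 0.52 on its brightest set and 0.15 on 2 others, and it lay in a dim stretch of chromosome 9. In the order of the RefSeq table, 22 consecutive measured genes from FOCAD to ELAVL2 read between 0.08 and 0.52, and 21 of them were at background. They comprise 14 type I interferon genes, which are silent in uninfected cells, and 8 others. FOCAD read 0.1, HACD4 0.12 and KLHL9, at its brightest of 4 sets, 0.11. MTAP, a metabolic enzyme of methionine salvage that most cells express, read 0.27 at its brightest of 6 sets. CDKN2B read 0.26, DMRTA1 0.2 and the neuronal ELAVL2 0.1. On one side the next measured genes were MLLT3 at 1.52, the dim SLC24A2 at 0.16 and ACER2 at 0.22, and then RPS6 at 129. On the other side came TUSC1 at 9.65, CAAP1 at 12.7, PLAA at 9.42 and IFT74 at 2.78, followed by LRRC19 at 0.06, TEK at 0.17 and EQTN at 0.09, again at background, and MOB3B, weak at 0.65. The stretch is the fifth longest of its kind on the array. The longer ones are gene clusters of restricted tissues: 37 genes of the keratin cluster from KRT12 to KRT15, 29 from TCHH to S100A7, 26 from LILRB3 to GP6 and 23 from TMPRSS11E to JCHAIN. The array reads RNA, and copy number was not measured.

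**Figure D5:**
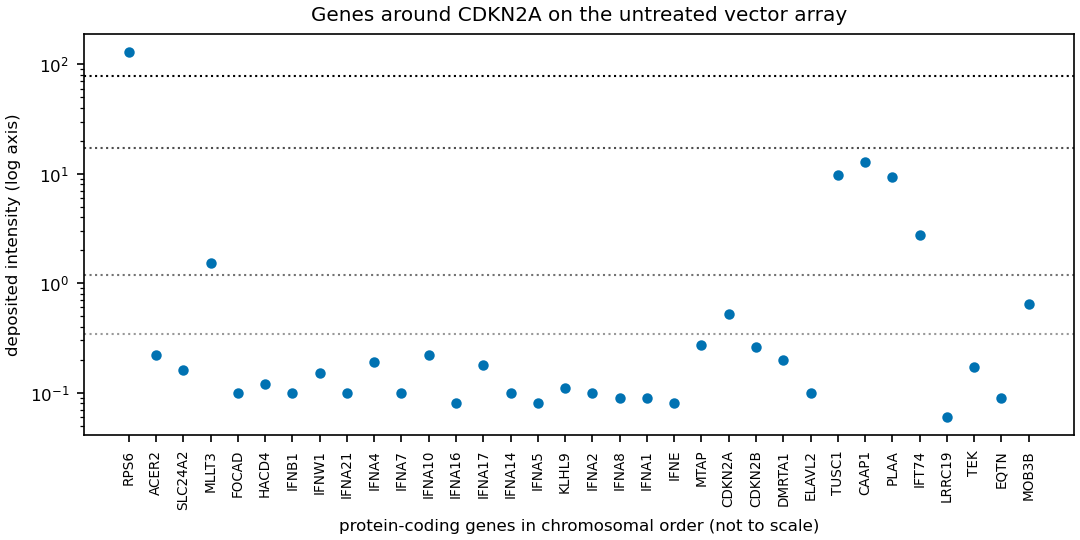
Intensity of 34 measured protein-coding genes around CDKN2A on chromosome 9, each at its brightest probe set, in chromosomal order but not to scale, on a log axis in arbitrary units, with dotted lines at the background, clear, strong and very strong levels. The 22 genes from FOCAD to ELAVL2 stay at or below 0.52, and genes outside that stretch reach 129.

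Antigen presentation by class I was read throughout, with 11 of 11 genes clear: B2M, the light chain, at 148, HLA-B at 40.4, HLA-C at 38.7, and the peptide transporter subunits TAP2 and TAP1 at 19.4 and 6.85. Class II, usual on professional antigen-presenting cells, was clear in 8 of 12 genes and strong in none. HLA-DRB1 read 11.6, HLA-DRA 9.4, HLA-DPA1 8.46 and the invariant chain CD74 3.51. Their activator CIITA was weak at 0.44 and HLA-DQA1 at background at 0.17. Interferon-stimulated genes were above background in 30 of 30 and clear in 23, with IFITM3 at 39.2, IFIT3 at 37.9, IFIT2 at 29.35 and ISG15 at 29. None of 15 type I interferon genes was above background, their median being 0.1. Of 14 NF-kappaB genes 12 were clear, led by the inhibitor NFKBIA at 19.5. TLR4 read 6.26 and TLR2 4.61, and of the other 8 Toll-like receptors TLR3 was the brightest at 1.06.

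Among developmental pathways, few Wnt ligands were clear. Of 17 WNT ligands 2 were clear, WNT5B at 3.14 and WNT5A at 2.79, against 7 of 11 Frizzled and LRP receptors, led by FZD6 at 22.7 and FZD2 at 15.9. In the Notch pathway the ligand JAG1, at 60.5, and the receptor NOTCH2, at 42.4, were strong, NOTCH4 was weak at 0.48, the target HES1 read 2.78, and 6 of 18 genes were clear. Of 28 semaphorins and ephrins, guidance cues, 11 were clear, led by SEMA3C at 15.8 and EFNB2 at 6.96. HOX genes were low, 6 of 28 clear and the brightest, HOXC6, at 3.14. Of 19 SOX genes SOX9 read 20.9 and SOX4 6.84, and of 17 KLF genes KLF6 read 38.2 and KLF4 17.8. Nuclear receptors were clear in 17 of 39, or 43.6%, near the 47.1% of all genes. NR3C1, the glucocorticoid receptor, read 34.5 and was the only strong one, PPARD read 9.88, PPARG 3.79 and VDR, the vitamin D receptor, 3.49.

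Cancer-testis genes, most of them on the X chromosome and normally active in germ cells, were mixed. Of 28 measured, 17 were at background and 9 clear, 32.1% against 47.1% of all genes. SPANXB1 read 107, in the top 1%, MAGEA6 21, MAGEC1 9.25 and MAGEA11 4.73, whereas MAGEA4 read 0.09. SPANX and MAGEA genes are near-identical within each family, so the signal may be that of a relative. With sets of several symbols included, 25 cancer-testis genes came above background in place of 11. Of 15 long noncoding RNAs ZFAS1 read 90.5, MALAT1 32.4 at the brightest of 12 sets, DANCR 29.5 and UCA1 7.81, and HOTAIR 0.1.

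Families of excitable and specialised cells were near background. Of 85 potassium channel genes 6 were clear, KCNK1 at 12.5, KCNQ5 at 4.65 and KCNN4 at 4.6 leading. None of 12 sodium channel genes was clear, SCN9A reading highest at 0.4. Of 88 neurotransmitter receptor and sodium channel genes together 4 were clear, with a median of 0.18. These were the histamine receptor HRH1 at 6.65, the serotonin receptors HTR7 at 3.02 and HTR4 at 1.2, and the glutamate receptor GRIK2 at 1.24. Cytochrome P450 genes were clear in 10 of 47, CYP2R1, a vitamin D 25-hydroxylase, leading at 9.1. In prostaglandin synthesis PTGES3, also a chaperone partner, read 92.1, the receptor PTGER4 12.4, PTGES 4.38 and PTGS1 0.43.

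Markers of other cell types were checked in 36 genes. Of these 16 were above background and 2 clear, against 66.0% and 47.1% of all genes, and the median was 0.3. HBB could not be clear, as it is in the panel that set that level. The clear ones were RUNX2, described above, and CD14 of monocytes at 1.67. The pan-leukocyte gene PTPRC read 0.17, MS4A1 of B cells 0.14, CD3E of T cells 0.31, CDH5 of endothelium 0.1, ALB of liver 0.15, CKM of muscle 0.13 and ADIPOQ of fat 0.09. PECAM1 at 0.87, TTR at 1.03, CLDN5 at 0.67 and CTSK at 0.67 were among the weak ones, in the range that the restricted genes reach. Apart from RUNX2 and CD14, the markers checked were thus weak or at background in this array.

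Of the 198 very strong genes 136 belong to a listed family. Among the rest were SLC25A3, the mitochondrial phosphate carrier, at 156, IER3, an early response gene, at 145, HMGB1, a chromatin protein that can be secreted, at 137, CAPN2, a calpain, at 122, CLTC, the clathrin heavy chain, at 114 and CD63, a tetraspanin of exosomes, at 82.2.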

How the data were processed

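The 4 arrays of the SCP2 line were deposited, 1 per group, and only the array titled as vector alone is described; the others serve for 1 count of shared bright sets. Values are linear intensities with 2 decimals that the authors deposited after RMA (background correction, quantile normalization and probe summary), per the submitters' processing notes; no source used here gives its version, its settings or the scale of the units. RMA gives the arrays near-identical distributions, so an overall difference in RNA would not show. Probe sets were named by the platform's annotation, and symbols were updated through gene IDs to RefSeq (41043 sets matched, 0 renamed). The 1801 sets with several symbols and the 11777 with none were not named. A gene's value is its brightest set. Python 3.11.15 with pandas 2.3.3 and numpy 2.4.6 was used, and the steps were tested on simulated data. The background is the 95th percentile of the olfactory receptor genes; the clear level was set after the data were seen.

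Genes were named by rule: the marker genes, those of the 25 brightest sets, up to 8 brightest members of each list with members at background, and every member of the breast subtype, bone, DLC1 and cell type lists, some given only in counts and ranges. There are exceptions. The genes around CDKN2A and very strong genes outside the lists were chosen after their values were seen. Some well-known list members were also named though they were neither among the 8 brightest nor at background. Among these are MMP9, COL1A1, ITGB3, SMAD7, TGFB1, FOS, MKI67, PLK1, NOTCH4 and CIITA. The genes and lists were chosen with earlier results of these data known, and 12 of 109 lists were added after the files were seen. The precision of the values cannot be estimated from 1 array per group. Alternatives were the median of a gene's sets, leaving out sets that can match several transcripts, including sets with several symbols, and other background levels.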

Additional observations from a re-analysis of the deposited data

Results flagged for a closer look

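Signal was present in probe sets that the report leaves out because the annotation used here gives them no gene. Of 11721 such sets without the control sets, 3414 were above background, 1196 were clear and 152 were strong. The clear share was 10.2%, against 36.9% of sets with 1 symbol. The 3 brightest, at 249, 214 and 214, would stand among the 25 brightest sets if they were named. There is 1 array per group, so no sample could be set against others of its group.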

How the results depend on the processing

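The number of genes above background, 13042, stayed within 1.5 times of itself under each alternative run: it was 12210 with the median of a gene's sets, 10339 without sets that can match several transcripts, 11621 at the 99th percentile of the olfactory receptors and at the 95th percentile of the other restricted genes, 12638 with the array's median as background and 14075 with sets of several symbols included. The count over bone and osteoclast genes, 32, ranged from 23 to 32, and that over all listed families, 1424, from 1053 to 1534. The number of clear genes, 9308, was 7357 with the median of sets, 8009 without sets that can match several transcripts and 7368 at a doubled clear level. It was 6131 with sets of several symbols included, where a brighter restricted gene lifts the clear level to 4.53. Of 107 families, 43 moved by more than 1.5 times under at least 1 setting, 33 of them without sets that can match several transcripts, among them metallothioneins (2 rather than 8 above background), the VEGF and PDGF genes (5 rather than 12) and Notch genes (8 rather than 15). No paired analysis was possible because each group has 1 array and no replicate numbers. Signal over background limits the weak genes, which lie within the range of restricted genes, and 1 set per gene limits many low readings.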
